A study of Mus musculus with 3 samples.

Results

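The DNA mismatch repair genes described here are Msh3, Msh6, Mlh3, Pms1, Pms2 and Exo1, taken as the rows of the deposited table whose gene symbol equals one of these names. All 6 were found among the 16977 genes of the table, none was absent, and all 6 passed the minimum mean of 10 normalised reads used for testing. The libraries were made from total RNA, depleted of ribosomal RNA, of cultured neural stem cells, which divide and later give rise to neurons and glia, from C57BL/6J mouse embryos at stage E12.5. There were 2 libraries of cells infected with lentivirus carrying a short hairpin RNA against PHF2 (shPHF2), described as biological replicates, and 1 library of cells infected with a control hairpin (shControl). All cells were grown with EGF and FGF and carried a lentiviral hairpin. The sources used here do not say whether 1 or several hairpins against PHF2 were used or whether infected cells were selected. PHF2 is a chromatin protein with a PHD finger, related to the demethylases of histone H3 lysine 9.

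Mismatch repair corrects bases misincorporated by the replicative polymerases and short loops formed when the strands slip. Proteins of the MutS family find the error, proteins of the MutL family are then recruited and nick the new strand, an exonuclease removes it past the error, and the replication machinery fills the gap. In mammals both families act as heterodimers, so the level of each partner bears on which complexes can form. MSH6 is the partner in the complex that recognises base mismatches and the smallest loops, and MSH3 the partner in the complex that recognises larger loops. PMS2 carries the endonuclease of the main MutL complex, MLH3 forms a complex best known from meiotic crossing over and from repeat instability, and the role of PMS1 in mammalian repair is little defined. EXO1 is the exonuclease of the pathway and also resects DNA ends.

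Promoter sequences are shown for Msh6 and Msh3, whose windows hold E2F-type octamers, and for Mlh3, the member that was higher in both shPHF2 libraries, whose windows hold none. The windows of Pms1 and Pms2, which were lower in both shPHF2 libraries, hold none either and are not shown. The E2F factors are the transcription factors best known for driving S phase genes. Each sequence runs 5′ to 3′ on the strand of its gene, from 250 bases before the RefSeq start to 30 bases after it (RefSeq, GRCm38.p6), and capitals mark the octamers TTTCCCGC, TTTGGCGC, TTTCGCGC or TTTGCCGC, searched on both strands. The stretches are chr17:87974800-87975079 on the plus strand for Msh6, chr13:92354974-92355253 on the minus strand for Msh3 and chr12:85270570-85270849 on the minus strand for Mlh3.
Msh6: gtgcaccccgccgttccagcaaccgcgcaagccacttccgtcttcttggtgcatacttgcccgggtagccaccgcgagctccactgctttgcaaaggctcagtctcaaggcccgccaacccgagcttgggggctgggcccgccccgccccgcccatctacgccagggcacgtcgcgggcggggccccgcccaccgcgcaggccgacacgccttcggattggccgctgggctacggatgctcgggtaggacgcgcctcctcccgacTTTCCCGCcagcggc
Msh3: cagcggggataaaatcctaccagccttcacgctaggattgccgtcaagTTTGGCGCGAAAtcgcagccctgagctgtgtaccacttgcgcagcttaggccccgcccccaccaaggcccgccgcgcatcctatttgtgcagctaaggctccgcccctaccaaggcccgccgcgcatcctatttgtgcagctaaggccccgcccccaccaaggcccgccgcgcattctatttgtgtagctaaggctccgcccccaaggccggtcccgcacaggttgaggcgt
Mlh3: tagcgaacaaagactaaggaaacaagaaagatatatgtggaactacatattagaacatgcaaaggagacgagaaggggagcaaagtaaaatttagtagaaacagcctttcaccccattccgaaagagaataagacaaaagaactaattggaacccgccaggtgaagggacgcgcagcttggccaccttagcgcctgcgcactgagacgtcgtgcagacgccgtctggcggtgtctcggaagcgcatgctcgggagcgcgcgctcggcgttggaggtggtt

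Reads assigned to genes numbered 37171026 and 26302177 in the shPHF2 libraries and 32898139 in shControl. Values are normalised reads, that is reads corrected for the size factor of each library, and the shControl value rests on 1 library, so its error could not be estimated. Phf2 had 985 and 714 normalised reads in shPHF2 replicates 1 and 2, against 2593 in shControl, which is -1.63 on the log2 scale (SE 0.24; limma, adjusted p = 0.0085). Of 14148 genes tested, 14.3% passed at a Benjamini-Hochberg adjusted p under 0.05, 7.11% lower and 7.22% higher in shPHF2 (limma). The 8 markers of neural stem cells summed to 273290 and 308550 normalised reads in shPHF2 and 261590 in shControl, while their median log2 change was -0.17. Vim, the vimentin gene, had 116800 and 132000 in shPHF2 and 77230 in shControl. Nes, the gene of the intermediate filament nestin, had 101400 and 98050 in shPHF2 and 118200 in shControl, while the Notch target gene Hes5 had 20.0 and 14.5 in shPHF2 and 39.9 in shControl. Sox2 rose by 0.68 on the log2 scale (limma, adjusted p = 0.048) and the other 7 stem cell markers did not pass. None of 6 neuron markers passed, and their median log2 change was 0.01. Their sum, mostly from Map2, was 41088 and 40265 in shPHF2 and 61830 in shControl, while Tubb3 had 198 and 346 in shPHF2 and 104 in shControl. Markers of microglia, fibroblasts and endothelium summed to at most 547 per list and library, and none that was tested passed. Microglia markers summed to 234 and 227 in shPHF2 and 111 in shControl. Fibroblast markers summed to 317 and 174 against 546, and endothelial markers to 169 and 80.8 against 211. Cldn5 of endothelium was at 0 in both shPHF2 libraries and at only 3.99 in shControl. In bulk RNA, fewer cells expressing a gene and less RNA per cell cannot be told apart.

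Among the mismatch repair genes, 3 of 6 fell in shPHF2 cells, namely Exo1, Pms1 and Msh6, and 0 rose (limma, adjusted p under 0.05), where 7.11% of all genes tested fell. Msh3 and Pms2 were lower in both shPHF2 libraries and did not pass, and Mlh3 was higher in both and did not pass. Thus 5 of 6 members lay below the control in both shPHF2 libraries, as did 41.8% of all genes tested, and 1 of 6 lay above it in both, as did 41.4%. The median log2 change of the 6 was -0.67, with -0.63 in replicate 1 and -0.72 in replicate 2, beside a median of -0.01 over all genes tested. In 3 of the 10 alternative fits 0 genes of the whole table passed, and these 3 calls were lost there with all others.

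**Figure D1:**
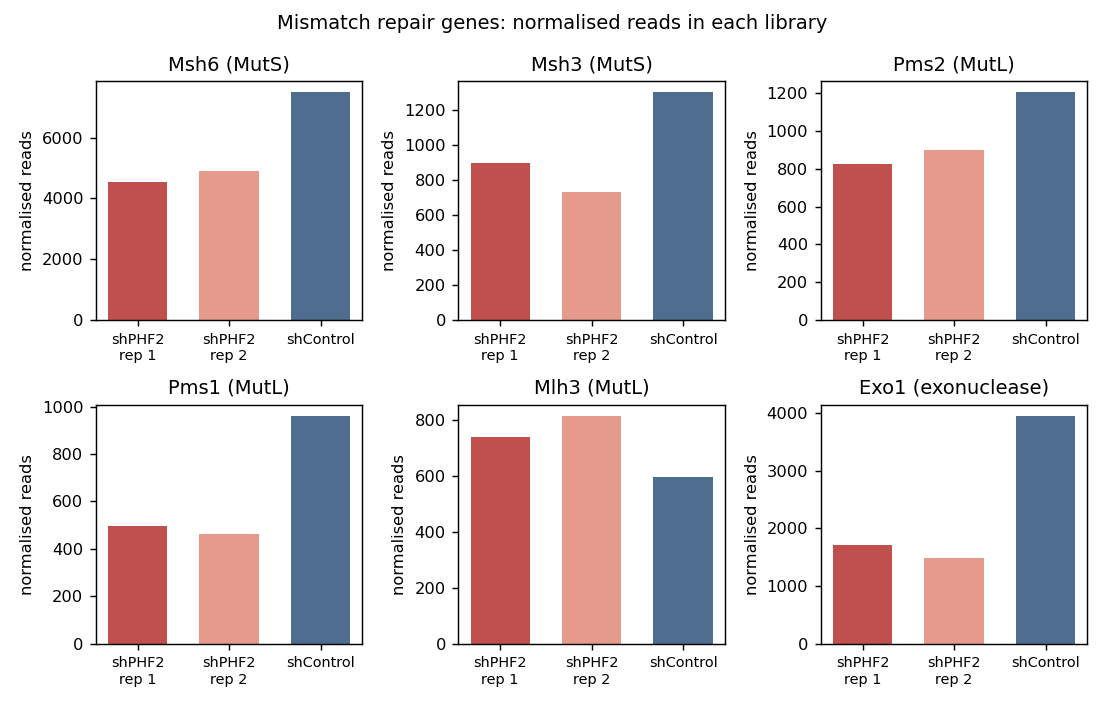
Normalised reads (vertical axis, linear from 0) of each mismatch repair gene in shPHF2 replicate 1, shPHF2 replicate 2 and shControl, 1 bar per library. Both shPHF2 bars stand below the shControl bar for Msh6, Msh3, Pms2, Pms1 and Exo1 and above it for Mlh3, where they are 739 and 815 against 596.

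Of the MutS genes, Msh6 lies on chromosome 17 (chr17:87975062-87990892, plus strand; GENCODE M21, GRCm38). It had 4544 and 4896 normalised reads in shPHF2 replicates 1 and 2, against 7485 in shControl. Both shPHF2 libraries were well below the control and close to each other, at 60.7% and 65.4% of it. The 95% counting intervals of these percentages ran from 58.6 to 62.9 and from 62.9 to 68.0, and cover counting error only. Msh6 fell by 0.67 on the log2 scale (SE 0.18; limma, adjusted p = 0.042). This call lay near the threshold and was lost when libraries were scaled by total reads in genes, where the log2 fold change was -0.60 (limma, adjusted p = 0.061).

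Msh3 lies on chromosome 13 (chr13:92211872-92355003, minus strand). It had 899 and 731 normalised reads in shPHF2 replicates 1 and 2, against 1299 in shControl. Replicate 2 was lower than replicate 1, at 56.3% against 69.2% of the control. Both lay below the single control library, as for 41.8% of all genes tested. The log2 fold change was -0.68 (SE 0.22; limma, adjusted p = 0.081), of the same size as that of Msh6, and its 95% interval before adjustment ran from -1.20 to -0.16. The gap between the replicates was 0.30 on the log2 scale for Msh3 and 0.11 in size for Msh6, beside a median gap of 0.21 over all genes tested. Msh3 did not pass in any of the 10 alternative fits, with adjusted p between 0.062 and 0.23 (limma, edgeR and DESeq2).

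Because Msh6 and Msh3 compete for a place in alternative MutS complexes, their balance was set out as well. The share of Msh6 in the reads of both genes was 83.5% and 87.0% in shPHF2 replicates 1 and 2, against 85.2% in shControl (Wilson 95% intervals 82.6 to 84.4, 86.0 to 87.9 and 84.5 to 85.9). The control lay between the shPHF2 libraries, so no direction was common to them. This share does not depend on how libraries were scaled.

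Of the MutL genes, Pms1 on chromosome 1 (chr1:53189187-53297018, minus strand) had 498 and 462 normalised reads in shPHF2 replicates 1 and 2, against 960 in shControl. The shPHF2 libraries differed little from each other and stood at 51.9% and 48.1% of the control. The log2 fold change was -1.0 (SE 0.23; limma, adjusted p = 0.030), and the call was lost once log2 values were corrected for GC content and length, where the log2 fold change was -0.89 (limma, adjusted p = 0.058). Pms2, on chromosome 5 (chr5:143909964-143933968, plus strand), had 828 and 898 normalised reads in shPHF2 replicates 1 and 2, against 1205 in shControl. These were 68.7% and 74.5% of the control, both below it, as for 41.8% of all genes tested. The log2 fold change was -0.48 (SE 0.21; limma, adjusted p = 0.16), with a 95% interval before adjustment that reached -0.0047 at its upper end.

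Mlh3, on chromosome 12 (chr12:85234520-85270599, minus strand), lay on the other side of the control from the other MutL members. It had 739 and 815 normalised reads in shPHF2 replicates 1 and 2, against 596 in shControl, which is 124% and 137% of the control. Both shPHF2 libraries were above it, with 95% counting intervals of 112 to 138 and 122 to 153. The log2 fold change was 0.38 (SE 0.22; limma, adjusted p = 0.29), and its 95% interval before adjustment, -0.14 to 0.90, included 0. An increase of Mlh3 was therefore not called, in this fit or in any of the 10 alternatives (adjusted p between 0.21 and 0.49).

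**Figure D2:**
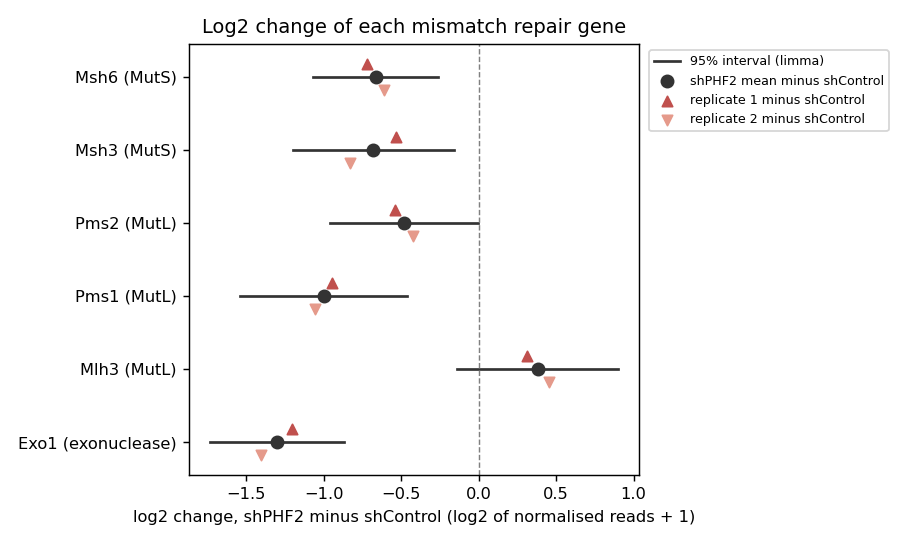
Log2 change of each mismatch repair gene, shPHF2 minus shControl (horizontal axis, log2 of normalised reads + 1). Circles are the shPHF2 mean with its limma 95% interval before adjustment, and triangles are the separate shPHF2 replicates; Exo1 lies farthest below 0 at -1.30 and Mlh3 alone lies above it at 0.38.

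The make-up of the MutL reads differed between both shPHF2 libraries and the single shControl library. Mlh3 took 35.8% and 37.5% of the reads of Mlh3, Pms1 and Pms2 in shPHF2 replicates 1 and 2, against 21.6% in shControl (Wilson 95% intervals 33.9 to 37.7, 35.3 to 39.7 and 20.1 to 23.2). Pms1 took 24.1% and 21.2% in shPHF2, against 34.8% in shControl. Pms2 took 40.1% and 41.3% in shPHF2, against 43.6% in shControl. The ratio of Mlh3 to Pms2 reads was 0.893 and 0.907 in shPHF2, against 0.495 in shControl. The intervals of Mlh3 and of Pms1 in both shPHF2 libraries did not overlap those in shControl. Such intervals cover counting error only and describe these libraries only. Those of the Msh6 share did not overlap between the shPHF2 replicates themselves (82.6 to 84.4 and 86.0 to 87.9). The difference in shares was not tested. Counted per kilobase of annotated exon instead of per read, Mlh3 took 36.8% and 38.6% in shPHF2 and 22.2% in shControl. Per kilobase of the longest transcript, Mlh3 took 31.3% and 33.4% in shPHF2 and 17.6% in shControl. On that length Pms1, not Pms2, was largest in shControl, at 50.8% against 37.7% and 33.9% in shPHF2. Pms2 then took 31.1% and 32.7% in shPHF2 and 31.6% in shControl.

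**Figure D3:**
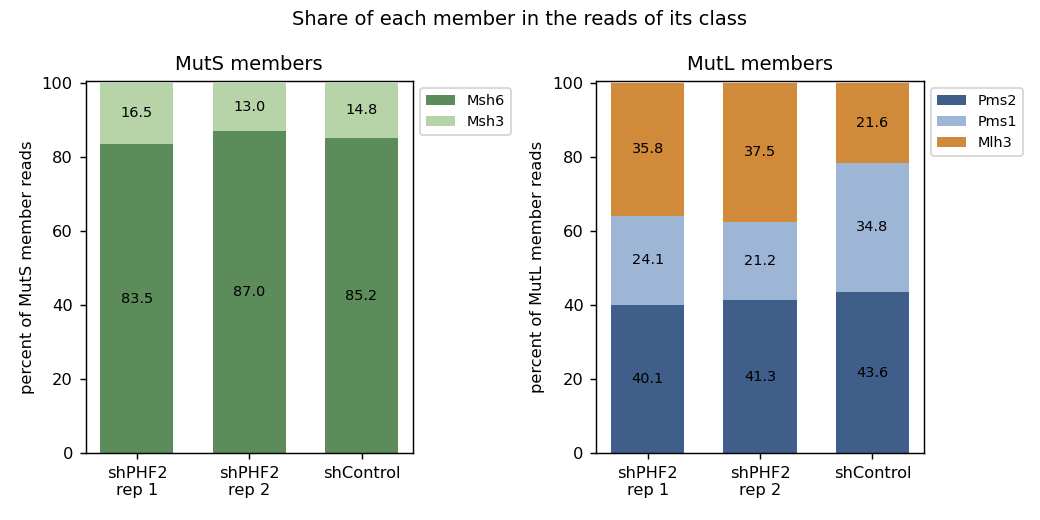
Share of each gene (vertical axis, percent) in the reads of the MutS members, left, and of the MutL members, right, in shPHF2 replicate 1, shPHF2 replicate 2 and shControl. The Msh6 share in shControl, 85.2%, lies between those of the shPHF2 libraries, while the Mlh3 share is 35.8% and 37.5% in shPHF2 against 21.6% in shControl.

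Set against each other, the MutS genes had a mean log2 change of -0.63 in replicate 1 and -0.72 in replicate 2, and the MutL genes -0.39 and -0.34. The difference, MutS minus MutL, was -0.23 in replicate 1 and -0.38 in replicate 2. It was not tested, since no score over chosen genes was. The MutL mean joins Pms1, at -1.0, with Mlh3, at 0.38, so the members of this class spread more widely among themselves than the class means differ.

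Exo1, on chromosome 1 (chr1:175880581-175913489, plus strand), showed the largest difference of the 6. It had 1712 and 1488 normalised reads in shPHF2 replicates 1 and 2, against 3943 in shControl. Both shPHF2 libraries were far below the control, at 43.4% and 37.7% of it, and closer to each other than to it. Exo1 fell by 1.30 on the log2 scale (SE 0.19; limma, adjusted p = 0.0079), and its log2 change was at percentile 3.0 of all genes tested. In the authors' deposited table the log2 fold change was also -1.30, with an adjusted p of 1.7e-05.

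Levels were set side by side between genes as normalised reads per kilobase of annotated exon. In shControl the order was Msh6 (1722), Exo1 (468), Pms2 (148), Pms1 (127), Msh3 (115) and Mlh3 (78.9). In shPHF2, Msh6 stayed highest with 1046 and 1127 per kilobase in replicates 1 and 2, and Exo1 followed with 203 and 177. Pms2 had 102 and 111 per kilobase in shPHF2, Mlh3 had 97.9 and 108, Msh3 had 79.9 and 64.9, and Pms1 had 66.0 and 61.2. The ranges of Pms2 and Mlh3 over the shPHF2 replicates overlapped, as did those of Msh3 and Pms1, while within each replicate Pms2 was above Mlh3 and Msh3 above Pms1. With the length of the longest transcript in place of all exons, Msh6 and Exo1 remained in the leading places and Mlh3 last in shControl, while the order of Pms1, Pms2 and Msh3 changed. On that length Mlh3 had 135.4 and 149.2 per kilobase in shPHF2 replicates 1 and 2, and Pms2 had 134.5 and 145.9. The order of Pms2 and Mlh3 within each shPHF2 replicate therefore depended on the length used.

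The proteins that act after mismatch recognition are shared with DNA replication. Of 14 genes for excision and resynthesis partners, 11 fell and 1 rose, with a median log2 change of -1.01, beside 3 of 6 and -0.67 for the members; the difference between these sets was not tested. Rpa2, a subunit gene of the protein that coats single-stranded DNA, had 1115 and 1154 normalised reads in shPHF2, against 3220 in shControl (log2 fold change -1.50; limma, adjusted p = 0.0060). Pcna, the sliding clamp that also activates the MutL endonuclease, had 2869 and 2792 in shPHF2, against 7532 in shControl (log2 fold change -1.41; limma, adjusted p = 0.0058). The clamp loader gene Rfc3 and the replication protein A gene Rpa3 did not pass, with log2 fold changes of -0.63 and -0.72. Pold4, the smallest subunit of DNA polymerase delta, rose, with 517 and 602 normalised reads in shPHF2 against 283 in shControl (log2 fold change 0.98; limma, adjusted p = 0.045), and is named after its value was seen.

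Replication genes outside the repair pathway moved with these genes. Of 22, 21 fell and 0 rose, with a median log2 change of -1.22, and the list summed to 53788 and 49751 normalised reads in shPHF2, against 116880 in shControl. Ccne2, a cyclin of S phase entry, changed by -1.65 and the ribonucleotide reductase gene Rrm2 by -1.43 on the log2 scale (limma, adjusted p = 0.0065 for both), and Gins4, at -0.51, did not pass. The part of this shift in the lower Exo1, Pms1 and Msh6 values was not tested. The log2 change of Exo1, -1.30, lay beyond the median of these replication genes, and that of Pms2 lay nearer to 0 than all of them. Those of Msh6 and Msh3, -0.67 and -0.68, lay nearer to 0 than all but Slbp, at -0.65, and Gins4.

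Among 6 genes associated with mismatch repair, 2 fell and 0 rose. The helicase gene Mcm8 had 444 and 445 normalised reads in shPHF2, against 910 in shControl (log2 fold change -1.03; limma, adjusted p = 0.028), and the chromatin protein gene Hmgb1 had 1305 and 1137 against 2121 (log2 fold change -0.80; limma, adjusted p = 0.034). Hmgb1 has many processed copies in the genome, between which counting could have split its reads. The 4 that did not pass were the helicase gene Mcm9, the nuclease gene Fan1, the deacetylase gene Hdac6 and Setd2, with log2 fold changes of -0.29, 0.03, -0.09 and -0.14. SETD2 writes trimethylated lysine 36 of histone H3, the mark that MSH6 reads on chromatin. Msh4 and Msh5, the MutS genes of meiosis, were barely expressed. Msh4 had 31.7 and 12.1 normalised reads in shPHF2, against 74.8 in shControl, and Msh5 had 53.4 and 89.2, against 107. Neither passed (limma, adjusted p = 0.14 and 0.45).

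The other excision repair pathways were set beside these genes. Of 18 base excision repair genes tested, 3 fell and 0 rose, with a median log2 change of -0.46. Fen1, the flap endonuclease that also matures Okazaki fragments, changed by -1.08 and the break sensor gene Parp1 by -0.91 on the log2 scale (limma, adjusted p = 0.010 and 0.018). Of 20 nucleotide excision repair genes, 2 fell and 0 rose, with a median of -0.07, a count near the 7.11% of all genes tested that fell. The 2 were the TFIIH subunit gene Gtf2h5 and the transcription-coupled repair gene Ercc8, both at -1.06 (limma, adjusted p = 0.013 and 0.027). The difference between these lists was not tested.

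**Figure D4:**
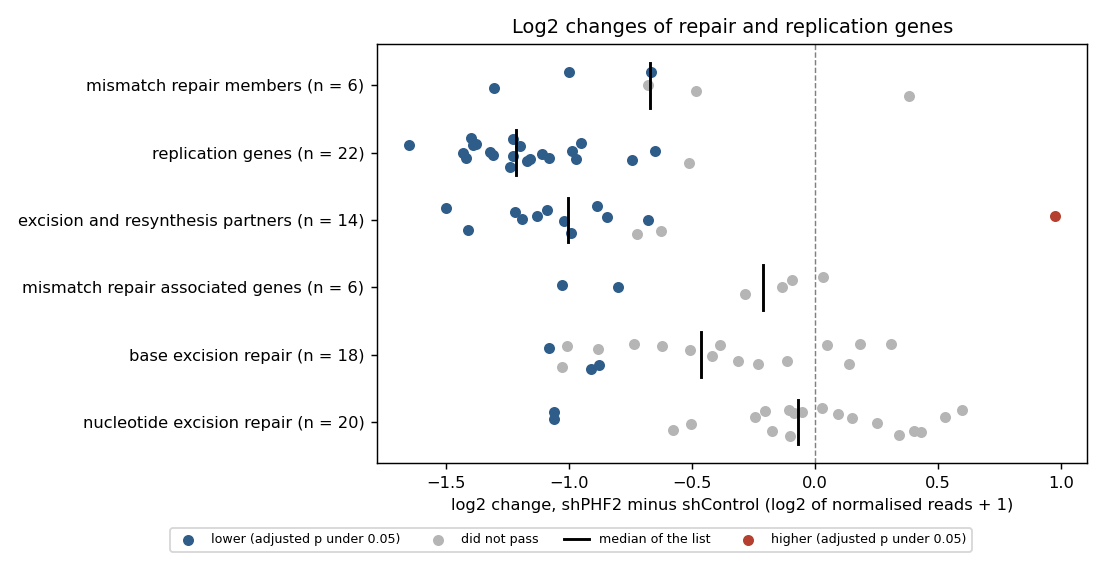
Log2 change of each gene, shPHF2 minus shControl (horizontal axis, log2 of normalised reads + 1), for the mismatch repair members and 5 lists of repair and replication genes, 1 point per gene, coloured by the limma call, with a black line at each median. The members have a median of -0.67, between replication genes at -1.22 and nucleotide excision repair genes at -0.07, and Pold4 is the point at 0.98.

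The genes whose changes lay nearest to those of Exo1, over the differences of the 2 shPHF2 libraries from the control, were Sox11, a neural transcription factor gene, E2f7, an E2F repressor gene, and Chaf1b, a subunit gene of the histone chaperone that loads new nucleosomes. Their distances from Exo1 were 0.0088, 0.017 and 0.022 on the log2 scale, among 11482 genes with a mean of at least 100. Nearest to Msh6 were the importin gene Ipo4, the splicing factor gene Usp39 and the RNA exosome subunit gene Exosc6, at 0.0087, 0.0094 and 0.011. Within a distance of 0.1 there were 28 genes around Exo1 and 167 around Msh6, so a near match in 3 libraries is common, more so for a moderate change.

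E2F-type octamers, spelled out above with the promoter sequences, were found in the promoter windows, from 250 bases before to 50 after the start, of 2 of the 5 members that have a RefSeq window. In Msh6 TTTCCCGC begins 16 bases into the transcript. In Msh3 TTTGGCGC begins at position -202 from the start and overlaps, by the bases GCGC, a reverse-complement match that begins at -198. The windows of Mlh3, Pms1 and Pms2 hold none of these letters. Such an octamer was present in 2.26% of all 32851 promoter windows. By gene, it was present in 2.6% of the 27025 with a window and in 4.57% of the 10296 of these that were tested. It was present in 11.7% of those that fell and 2.10% of those that rose, in 9 of 17 replication genes, in 4 of 13 excision and resynthesis partners, in 1 of 17 base excision repair genes and in 0 of 16 nucleotide excision repair genes. Among the genes associated with mismatch repair 1 of 6 carried it, and among the meiotic MutS genes 1 of 2. These matches describe letters in a window and not binding. Msh3 and Msh6, which carry the octamer, had log2 changes of -0.68 and -0.67, and Pms1, Pms2 and Mlh3, which do not, had -1.0, -0.48 and 0.38.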

How the data were processed

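The submitters' processing notes name HISAT2, HTSeq and DESeq2 and the build mm10; versions, annotation and strand use in counting were not given in the sources used here. The deposited signal of each gene and library is a read count that the authors divided by a DESeq2 size factor: 100% of values were whole multiples of the smallest value above 0 in their column (within 0.001), so whole reads were recovered. Further deposited columns hold the authors' DESeq2 results: a log2 fold change with its error, the Wald statistic as a score, and the p-value before and after adjustment. The 4 rows that name no gene (61.5% of reads in both shPHF2 libraries, 61.4% in shControl) were left out, and 0 library columns were unused.

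The test was limma 3.58.1 on log2(value + 1) in R 4.3.3 (mean-variance trend), two-sided, for 14148 genes with a mean of at least 10, and Benjamini-Hochberg adjusted over all of them. Fold changes on this scale understate those of low genes. The test has 1 residual degree of freedom, from the shPHF2 libraries, and 6.94 prior ones; the control library is taken to vary as they do. Reads of both replicates were farther apart than sampling noise (chi-square per degree of freedom 58.9 over 14185 genes), so they were counted as 2 samples. No source says that they came from separate cultures beyond the words biological replicates. The p-values rest on the spread between these 2 samples, drawn strongly toward a prior shared by all genes. No spread between control libraries enters them. In simulated data for 14148 genes with 200 changed, the share recovered by limma was 43.3% at a 2-fold and 79.9% at a 4-fold change, with 13.1% of calls false. Alternatives used edgeR 4.0.16 and DESeq2 1.42.0 on whole reads, other scalings, pseudocounts and filters, and a GC and length correction.

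The members and gene lists were chosen with earlier results of these data known. All 6 members are named; from each list, the 2 genes with the largest change among those that passed, and those that did not pass where these were 5 or fewer. Nearest patterns use the Euclidean distance between the log2 differences of both shPHF2 libraries from the control. Lengths and places come from GENCODE M21 (GRCm38), matched by symbol or synonym for 98.9% of genes. Some other genes are not reported here. Tdg had a mean under 10 and Neil2 no row in the table used here, so neither was tested.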

Additional observations from a re-analysis of the deposited data

How the results depend on the processing

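No direction of a member's log2 change reversed in 72 alternative values (10 fits and 2 single replicates for each of 6 genes). Part of this was fixed in advance. Another minimum mean, or limma without the trend, leaves the log2 change itself as it was, and the single replicates repeat differences already given. All 72 values use the same shControl library, so they do not measure how the control varies. Of 3 members that fell, 0 passed with quantile normalization, with no minimum mean and with limma without the trend; in these settings 0 of all genes passed, while 3700, 3893 and 3300 had an unadjusted p under 0.05, and edgeR called 2147 and DESeq2 2032 genes. The related lists then had 0 genes called lower, against 39. The GC and length correction called 1263 of all genes, against 2027; beyond this the cause was not tested. The MutS minus MutL difference of -0.31 ranged from -0.38 to -0.23 when 1 shPHF2 replicate was left out. These are the values of the single replicates given above and have no test. The difference was -0.21 with quantile normalization and -0.36 with the GC and length correction, also without a test. With edgeR TMM scaling it was -0.31, which could hardly move, since the scaling of a library all but cancels in this difference. No paired analysis was possible with a single shControl library. Members had 383 to 7509 reads per library, and the control is a single library.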

Other observations

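Some members share their start region with a gene read in the opposite direction. For Pms1 and Pms2, the protein-coding genes on the other strand whose starts lie within 1000 bases were looked up after the values were seen, and those present in the table are given. Ormdl1, a regulator gene of sphingolipid synthesis, starts 77 bases from Pms1 in the other direction. It had 1525 and 1558 normalised reads in shPHF2, against 1568 in shControl, a log2 fold change of -0.02 (limma, adjusted p = 0.94), beside -1.0 for Pms1. Aimp2, a scaffold gene of the tRNA synthetase complex, starts 117 bases from Pms2, and had 999 and 1096 in shPHF2, against 1523 in shControl. Its log2 fold change of -0.54 (limma, adjusted p = 0.11) was close to the -0.48 of Pms2, and neither passed. The differences within these pairs were not tested.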
